A study of Mus musculus with 10 samples.

Results

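Feedback inhibitors of the epidermal growth factor receptor (EGFR) and of the mitogen-activated protein kinases (MAPK) were followed through RNA labelling and chemical conversion in NIH-3T3 cells. The group was set by name and holds 9 of the 17053 genes listed: the phosphatases Dusp1, Dusp4, Dusp5 and Dusp6, the Sprouty proteins Spry2 and Spry4, the Sprouty-related proteins Spred1 and Spred2, and the receptor inhibitor Errfi1. The rule reads gene symbols and no measured value of these libraries, and all 9 had enough reads to be tested. The study, on bias from nucleotide-conversion chemistry, holds 10 libraries of this wild-type mouse fibroblast line in 5 groups, each with replicates A and B. The TUC group received 800 µM 4-thiouridine (4sU) for 2 h and its RNA went through osmium tetroxide oxidation with an ammonium salt. The SLAM group received the same label and its RNA was alkylated with iodoacetamide. The 4sU group was labelled in the same way and its RNA was not converted, the uridine group received 800 µM uridine for 2 h, and the untreated group received nothing. All groups are 1 established cell line, and the labels do not say whether A and B were separate cultures, and every p-value here covers only the spread among these libraries, which may be technical.

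Growth factor receptors signal through RAS, RAF, MEK and ERK, and active ERK switches on genes whose products shut the same pathway down. Dual-specificity phosphatases remove the activating phosphates from ERK, p38 or JNK, Sprouty and Spred proteins hold back signalling between the receptor and RAF, and Errfi1 (also called Mig6) binds the EGFR kinase domain and blocks its activation. Transcripts of such feedback genes are known to be made and destroyed quickly, which lets the brake follow the signal. 4sU is built into RNA made while it is present, and both chemistries make labelled positions read as T-to-C mismatches, so that RNA made during labelling can be told from older RNA.

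Sequences upstream of the annotated starts show what these genes carry just outside the transcript. For 7 members, 8 windows of 250 bases were read from the RefSeq table of the mouse build GRCm38.p6. The 4 windows below were chosen as examples of 3 motifs of signal-responsive promoters and are written on the strand of the gene, with the matches in capitals. TGACGTCA, the cyclic AMP response element, was found in Errfi1 (chr4:150854820-150855069, plus strand, the window of its downstream start) and in Dusp1 (chr17:26508473-26508722, minus strand). A pair of CArG boxes, the element bound by serum response factor, stood side by side in Dusp5 (chr19:53528895-53529144, plus strand). CGGAAG, the core of ETS factor sites, stood in Dusp6 on the reverse strand (chr10:99262981-99263230, plus strand), where it reads CTTCCG.
Errfi1: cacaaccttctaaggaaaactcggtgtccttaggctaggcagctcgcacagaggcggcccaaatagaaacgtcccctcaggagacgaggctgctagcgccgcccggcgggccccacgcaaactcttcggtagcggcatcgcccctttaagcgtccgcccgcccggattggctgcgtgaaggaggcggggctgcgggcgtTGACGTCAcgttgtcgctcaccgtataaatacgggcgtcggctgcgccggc
Dusp1: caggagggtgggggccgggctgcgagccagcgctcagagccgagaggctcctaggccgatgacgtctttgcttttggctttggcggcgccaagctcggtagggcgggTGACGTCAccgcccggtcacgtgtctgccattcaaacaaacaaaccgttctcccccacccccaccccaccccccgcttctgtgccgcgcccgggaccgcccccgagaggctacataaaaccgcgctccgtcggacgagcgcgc
Dusp5: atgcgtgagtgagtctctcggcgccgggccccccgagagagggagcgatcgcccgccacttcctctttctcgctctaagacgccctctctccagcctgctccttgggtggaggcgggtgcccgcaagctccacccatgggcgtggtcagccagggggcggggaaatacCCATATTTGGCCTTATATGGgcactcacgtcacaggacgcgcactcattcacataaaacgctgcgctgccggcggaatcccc
Dusp6: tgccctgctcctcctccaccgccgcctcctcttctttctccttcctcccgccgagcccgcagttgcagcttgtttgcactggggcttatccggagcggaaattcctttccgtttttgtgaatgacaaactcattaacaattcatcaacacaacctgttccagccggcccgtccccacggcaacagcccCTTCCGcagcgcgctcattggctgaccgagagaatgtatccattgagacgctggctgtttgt

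Both strands of each window were searched. Dusp4 had no entry in the table and Spry4 was left out of the search, so the member counts of motifs cover neither. The TGACGTCA match of Errfi1 lay 51 to 44 bases before the start and that of Dusp1 143 to 136 bases before it, and 1.55% of the 32851 windows of this length in the table hold the motif. The CArG boxes of Dusp5 covered bases 82 to 63 before the start, against 1.47% of windows with at least 1 such box. CGGAAG was found in Dusp6, Spred1 and Spred2 and in 13.6% of windows, and GGGCGG, the GC box, in 5 of the 8 member windows and in 32.7% of all. TGANTCA, the AP-1 element, was in 0 of the 8 member windows and in 6.75% of all. No match shown in capitals overlapped a GGGCGG match. A match describes these letters only and is not a measured site.

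Gene counts summed to between 27094222 (uridine A) and 33785682 (untreated B) per library, and the 9 members took 0.0872 to 0.105% of them. Levels are given as CPM, reads brought to the same library total with edgeR's TMM factors. The fibroblast label held, with 7 of 7 fibroblast markers tested and a summed level of 15411 to 23494 CPM. Epithelial markers summed to 0.0722 to 0.327 CPM and endothelial ones to 0.173 to 1.06 CPM, while leukocyte markers summed to 7.50 to 16.5 CPM, of which Cd68 took 6.36 to 14.4 CPM and the defining leukocyte gene Ptprc 0 to 0.149 CPM. Libraries of the same letter resembled each other across groups, so each comparison was also fitted with the letter as a block, which sets libraries against those of their own letter. In these bulk samples, fewer cells that express a gene and less of its RNA per cell cannot be told apart.

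Errfi1 and Dusp4 were the most abundant members in untreated, uridine and 4sU cells when levels were divided by the deposited gene length. In untreated cells, Dusp4 had 73.0 ± 8.42 CPM per kb and Errfi1 64.9 ± 3.70 CPM per kb (SD, n = 2 here and below), a difference within the SD of Dusp4. Dusp5 followed at 47.9 ± 12.8 and Dusp1 at 33.6 ± 2.23 CPM per kb. The next members, Spred2 (22.1 ± 2.93), Spry2 (21.9 ± 0.646), Dusp6 (19.5 ± 2.85) and Spred1 (19.3 ± 1.14 CPM per kb), could not be ordered, since neighbours differed by less than the larger SD. Spry4 stood lowest at 3.54 ± 0.283 CPM per kb. In 4sU cells Errfi1 led with 87.8 ± 2.94 CPM per kb, ahead of Dusp4 with 70.8 ± 7.81 CPM per kb. In TUC and SLAM libraries Errfi1 led as well, and Dusp5 (54.4 ± 10.5 and 58.1 ± 20.7 CPM per kb) and Dusp4 (50.9 ± 7.08 and 55.4 ± 16.7) differed by less than their SDs. The plot of levels by library shows each member on the CPM scale.

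**Figure D1:**
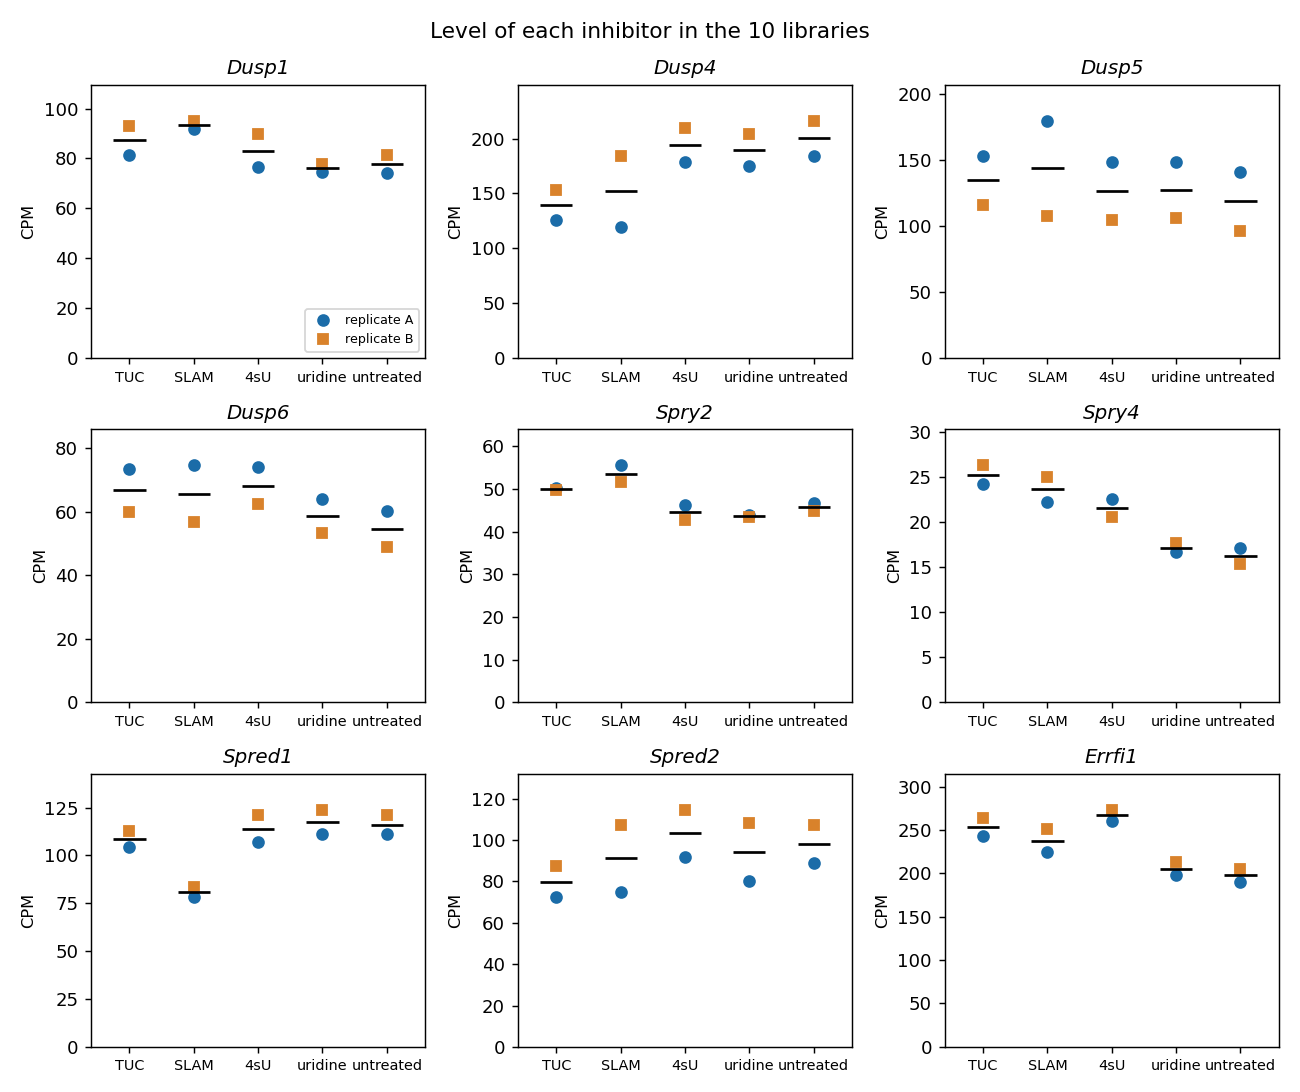
Each panel plots the CPM of 1 member (linear axis from 0) in the 10 libraries, with groups along the x axis, circles for replicate A, squares for replicate B and a bar for the mean of the 2. Errfi1 and Spry4 lie above the uridine and untreated libraries in all 6 libraries given 4sU, Spred1 is lowest in the SLAM libraries (78.3 and 83.4 CPM), and Dusp5 and Dusp6 are lower in B than in A in every group.

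Nearly all RNA of these genes was made within the 2 h of labelling. The deposited share of a gene's RNA that is new, or new-to-total RNA ratio (NTR), had its mode between 0.9514 and 1 in all 36 values of the 9 members in TUC and SLAM libraries. All 9 members were above 0.9 in each of the 4 libraries, against 18.6 and 22% in TUC A and B and 18.2 and 21.5% in SLAM A and B of the 10202 genes that averaged at least 100 reads. The median over all those genes was 0.544 and 0.630 in TUC A and B and 0.523 and 0.611 in SLAM A and B. Without conversion the estimate stayed low, at 0.0216 to 0.058 in 4sU libraries and 0.0081 to 0.0453 in uridine libraries over the 9 members, with Spred2 at the top of both ranges. The medians over the 10202 genes were 0.0194 and 0.0177 in 4sU A and B and 0.0142 and 0.01 in uridine A and B.

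Among the phosphatases, Dusp5, which acts on nuclear ERK, had modes of 0.9976 and 0.9912 in TUC A and B and of 1 and 0.9997 in SLAM A and B. Dusp1, a nuclear phosphatase of p38, JNK and ERK, had 0.9977 and 0.9833 in TUC, against 1 and 0.9875 in SLAM. Dusp4, another nuclear phosphatase, had 0.9939 and 0.9752 in TUC, against 1 and 0.9877 in SLAM. In each of these genes A was above B in both chemistries. Dusp6, the cytoplasmic phosphatase selective for ERK, showed the same order, with 0.9952 and 0.9869 in TUC, against 1 and 0.9849 in SLAM.

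Errfi1 stood near the top of the whole table. Its modes were 1 and 0.9963 in TUC A and B and 1 and 1 in SLAM A and B, and by its lower bound (the 0.05 quantile of the estimate) it ranked 5 and 7 in TUC and 5 and 5 in SLAM among 10202 genes. Spry4, which restrains RAS activation below receptor tyrosine kinases, was the only member with a mode of 1 in all 4 libraries, with lower bounds from 0.9794 to 0.9895. Spry2, its paralogue, had 0.9896 and 0.984 in TUC, against 0.9991 and 0.9771 in SLAM.

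The Spred genes, whose products bind neurofibromin at the membrane, kept the most older RNA. Spred1 had NTR modes of 0.9546 and 0.9612 in TUC A and B and of 0.9598 and 0.9514 in SLAM A and B. Spred2 had 0.9669 and 0.9735 in TUC, against 0.9625 and 0.9718 in SLAM. In all 4 libraries their modes lay below those of the other 7 members, and Spred1 below Spred2. The unconverted 4sU libraries gave a mean of 0.02445 for Spred1 and 0.05605 for Spred2, a wider gap in the same direction. The uridine libraries, which received no 4sU, gave 0.0122 and 0.0417, so this background gap was present without the label as well. The bounds of Spred1 ended at 0.9623 and 0.9678 in TUC and at 0.9695 and 0.9611 in SLAM.

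Little pre-existing RNA of any member was left after 2 h. It came to 3.92% (TUC) and 3.10% (SLAM) of the untreated level for Spred1, the highest values, and to 2.40% and 2.97% for Spred2. For Spry4 it was 0% in both, because every mode was 1. A half-life can be read from the lowest lower bound only if synthesis and decay stayed constant through labelling, which was not tested. Errfi1 and Spry4 had higher levels in every library given 4sU than in any without it. Their levels do not meet this condition, so their values are not upper limits. Under the assumption, the longest RNA half-life was 17.1 min in TUC and 14.2 min in SLAM for Errfi1. For Spred1 it was 28.6 min in TUC and 29.6 min in SLAM. The other members lay between, from Spry4 (18.6 and 21.4 min) and Dusp5 (20.4 and 18.9 min) to Spred2 (26.9 and 28.1 min). A lower bound also lies further from the mode where reads are few. Errfi1 had a mean count of 7256 and Spry4, with every mode at 1, of 646. This order is therefore not one of RNA stability alone. These values sit at the upper end of what an NTR can resolve: 11 of the 36 modes were exactly 1, and 11 lay above their own 0.95 quantile.

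**Figure D2:**
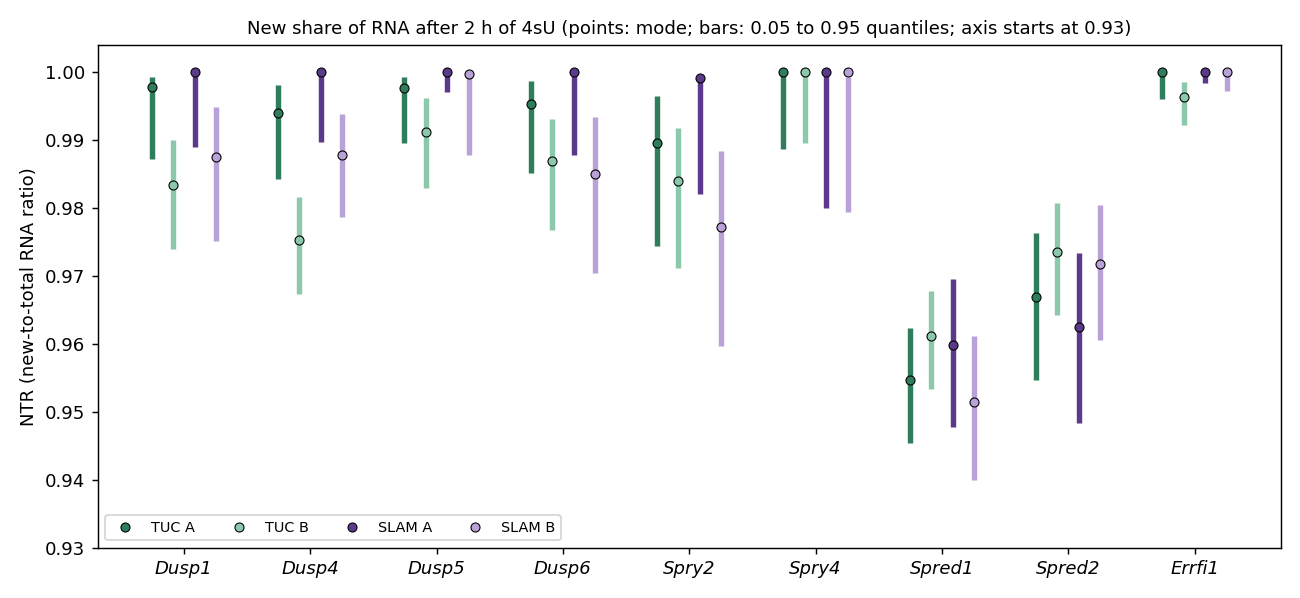
The y axis, which starts at 0.93, gives the NTR of each member in TUC A and B (green) and SLAM A and B (violet), with points for the mode and bars from the 0.05 to the 0.95 quantile. Spred1 and Spred2 lie lowest, between 0.9514 and 0.9735, and the bars of Errfi1 are the shortest.

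No difference in NTR between the chemistries passed the test for these genes when all 4 libraries were used. For this test any NTR above a set upper limit just under 1 was replaced by that limit. Dusp5 had the largest difference on the log2 odds scale, at -2.21 ± 0.612 (SE). Its mean NTR was 0.994 ± 0.00453 in TUC and 1.000 ± 0.000212 in SLAM. Both SLAM values of Dusp5 (1 and 0.9997) were replaced by the limit, so the size of its difference depends on that choice. The adjusted p of Dusp5 was 0.827 in limma (Benjamini-Hochberg over 10202 genes). In that test 0 of 9 members passed, against 0.265% of all genes, and 1 member had an unadjusted p under 0.05. With the letter as a replicate block 0 members passed and 0 had an unadjusted p under 0.05. A log odds near an NTR of 1 turns small differences into large ones, and without SLAM B 4 members passed (Dusp1, Dusp4, Dusp6 and Spry2), against 2.84% of genes, while without TUC A 1 did (Dusp5), against 1.51%.

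Uridine at the same dose served as the control for the added nucleoside. The members' log2 fold changes in uridine against untreated cells ran from -0.08 (Dusp4) to 0.10 (Dusp5), and 0 of 9 passed in edgeR's quasi-likelihood test, with 0 at an unadjusted p under 0.05. Over all 12218 genes 0% passed, 46 had an unadjusted p under 0.05, and DESeq2 called 0. With the letter as a block 0 of 9 members passed as well, against 0.00818% of genes. Spry2 had 43.9 and 43.5 CPM in uridine A and B, against 46.6 and 44.7 CPM in untreated A and B, and was the only member whose libraries did not overlap, which held for 7.33% of genes in the lower direction.

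The effect of the label without conversion was read from 4sU against untreated cells. Errfi1, Spry4 and Dusp6 were higher in both 4sU libraries than in both untreated ones, and the other 6 members overlapped. Of all genes, 17.3% were higher without overlap. Errfi1 had 260.9 and 273.5 CPM in 4sU A and B, against 189.5 and 205.5 CPM in untreated A and B. Its log2 fold change was 0.44 ± 0.0988 (SE), which edgeR's quasi-likelihood test gave an adjusted p of 0.15, and 0.44 ± 0.050 with matched letters in the block (adjusted p = 1.7e-05). In edgeR it passed only when letters were matched, and it kept its call in that fit when any 1 of the 4 libraries was left out.

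Dusp6 had 74.1 and 62.2 CPM in 4sU A and B, against 60.2 and 48.9 CPM in untreated A and B. The groups did not overlap, and the log2 difference was 0.30 within A and 0.35 within B. Its fold change of 0.32 had an adjusted p of 0.719 without the block and of 0.00108 with it The call with the block was kept when any 1 of the 4 libraries was left out. Spry4 had 22.5 and 20.5 CPM in 4sU cells, against 17.1 and 15.3 CPM in untreated cells, again without overlap. Its fold change was 0.41 ± 0.111 (adjusted p = 0.250) without the block and 0.40 ± 0.0893 (adjusted p = 0.00469) with it, and the call with the block was lost without 4sU A (adjusted p = 0.123) or untreated B (0.0697).

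In all, 0 of the 9 members passed in 4sU against untreated cells without the block, against 0.164% of genes, with 2 members and 1102 genes at an unadjusted p under 0.05. DESeq2 called 1 member (Errfi1, adjusted p = 0.00668) and 1.97% of genes. With the block 3 were higher and 0 lower, against 6.97% of genes higher and 12.9% lower. The median log2 fold change of the members was 0.10 in that fit and that of all genes 0.01. Dusp1, Dusp4, Dusp5, Spry2, Spred1 and Spred2 had values from -0.04 to 0.10 with adjusted p from 0.273 to 0.745.

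Against uridine, the same 4sU libraries gave Errfi1 a log2 fold change of 0.38 ± 0.0501 (adjusted p = 6.24e-05 with the block, 0.191 without it). Errfi1 had 197.6 and 212.9 CPM in uridine A and B. Spry4 had 16.6 and 17.6 CPM there and a fold change of 0.32 ± 0.0899 (adjusted p = 0.0192 with the block, 0.340 without). Dusp6 had 63.8 and 53.1 CPM and 0.22 ± 0.0590 (adjusted p = 0.0150 with the block, 0.835 without), and here its libraries overlapped, unlike those of Errfi1 and Spry4 (16.9% of genes were higher without overlap). The block called 3 members higher and 0 lower, against 6.48 and 13.3% of genes, and 0 members passed without it, against 0.254% of genes, with 2 members and 1237 genes at an unadjusted p under 0.05. DESeq2 called 1 member (Errfi1, adjusted p = 0.0243) and 2.28% of genes. With the block, leaving out any 1 library kept the call of Errfi1 and ended that of Dusp6 (adjusted p 0.0761 to 0.193). The call of Spry4 ended without 4sU A, uridine A or uridine B (adjusted p 0.0850 to 0.257). This comparison shares its 4sU libraries with the one against untreated cells.

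**Figure D3:**
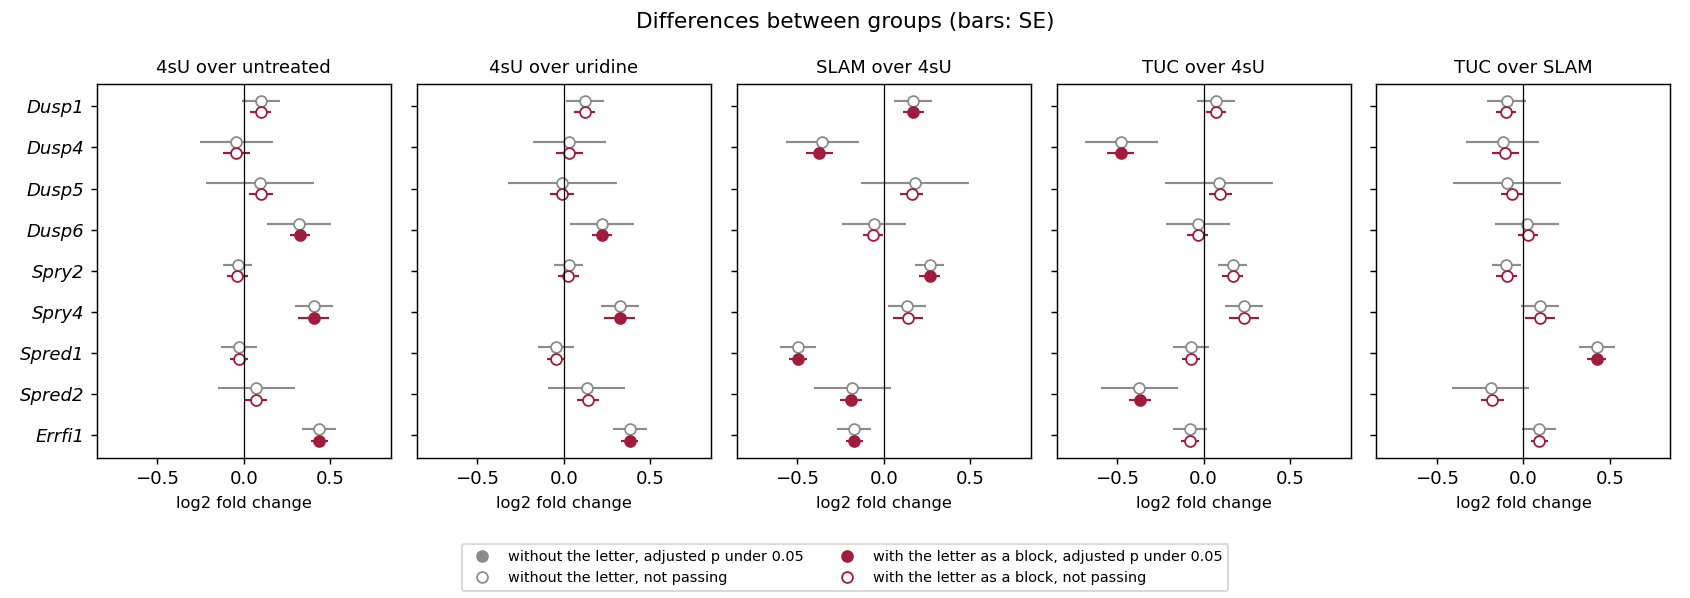
Each panel plots the log2 fold change of the 9 members in 1 comparison (x axis, bars for the SE), in gray without and in red with the replicate letter as a block, filled where the adjusted p is under 0.05. In 4sU over untreated and over uridine Dusp6, Spry4 and Errfi1 are filled in red, Spred1 is at -0.49 in SLAM over 4sU and near 0 in TUC over 4sU, and no gray point is filled.

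Conversion was read from the TUC and SLAM libraries against the unconverted 4sU ones, which both comparisons share. Dusp4 was lower in both chemistries, Spred2 most clearly in TUC, Spred1 in SLAM, and Spry2 and Dusp1 were higher in SLAM. In edgeR without the block 0 of 9 members were called in TUC against 4sU, against 0% of genes, with 0 members and 846 genes at an unadjusted p under 0.05. In SLAM against 4sU 0 of 9 were called, against 0.344% of genes, with 2 members and 2284 genes at an unadjusted p under 0.05. DESeq2 called 0 members in TUC, against 0.131% of genes, and Spred1 in SLAM (adjusted p = 0.00279), against 5.72%. With the block, 2 members were lower and 0 higher in TUC, against 14.2% of genes lower and 11.6% higher. In SLAM 4 were lower and 2 higher, against 21.6% lower and 20% higher.

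Dusp4 had 125.9 and 153.3 CPM in TUC A and B and 119.3 and 184.1 CPM in SLAM A and B, against 178.9 and 209.1 CPM in 4sU A and B. Both TUC libraries lay below both 4sU libraries, whereas SLAM B lay above 4sU A. With the block its log2 fold change was -0.48 ± 0.0782 in TUC (adjusted p = 0.000806) and -0.37 ± 0.0778 in SLAM (adjusted p = 0.00124), and both calls were kept when any 1 library of the compared groups was left out. The SLAM value was -0.18 without SLAM A and -0.58 without SLAM B. Without the block the adjusted p was 0.704 and 0.398.

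Spred2 had 72.4 and 87.4 CPM in TUC and 75.1 and 107.2 CPM in SLAM, against 91.9 and 114.8 CPM in 4sU cells. Only the TUC libraries lay wholly below the 4sU ones. With the block its fold change was -0.37 ± 0.0646 in TUC (adjusted p = 0.00119; 0.0587 without TUC B) and -0.19 ± 0.0639 in SLAM (adjusted p = 0.0255). The SLAM call was lost without 4sU A, 4sU B or SLAM A (adjusted p 0.0842 to 0.275), and its value was -0.09 without SLAM A and -0.29 without SLAM B. Without the block the adjusted p of Spred2 was 0.709 in TUC and 0.695 in SLAM.

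Spred1, the paralogue of Spred2, was low in the SLAM libraries. It had 104.3 and 112.6 CPM in TUC A and B and 78.3 and 83.4 CPM in SLAM A and B, against 106.7 and 121.2 CPM in 4sU, 111.2 and 124.0 CPM in uridine and 111.3 and 121.0 CPM in untreated cells. The SLAM libraries lay below all 8 others. In SLAM against 4sU its log2 fold change was -0.49 ± 0.0528 with the block (adjusted p = 6.19e-06) and -0.50 ± 0.104 without it (adjusted p = 0.0854), and in TUC against 4sU it was -0.07 ± 0.0523 (adjusted p = 0.342).

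Spry2 had 50.2 and 49.8 CPM in TUC and 55.6 and 51.6 CPM in SLAM, against 46.3 and 42.8 CPM in 4sU cells, so that all 4 converted libraries lay above the unconverted ones. In SLAM its fold change was 0.27 ± 0.0604 (adjusted p = 0.00223 with the block, 0.159 without), a call lost without 4sU B (adjusted p = 0.0554), and in TUC it was 0.17 ± 0.0610 (adjusted p = 0.0516). Dusp1 had 81.4 and 93.1 CPM in TUC and 91.7 and 95.2 CPM in SLAM, against 76.5 and 89.6 CPM in 4sU cells. Only its SLAM libraries lay wholly above, with a fold change of 0.17 ± 0.0591 (adjusted p = 0.0278 with the block, 0.434 without), lost without 4sU A (0.276) or SLAM A (0.111).

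Errfi1 had 242.9 and 263.6 CPM in TUC and 224.2 and 251.1 CPM in SLAM, so the SLAM libraries lay below the 4sU ones and above the uridine and untreated ones. Its fold change in SLAM against 4sU was -0.17 ± 0.0499 (adjusted p = 0.0118 with the block, 0.392 without), and the call was kept only when SLAM B was left out (adjusted p 0.0510 to 0.178 without 4sU A, 4sU B or SLAM A). Spry4 had 24.2 and 26.3 CPM in TUC, above the 4sU libraries, and 22.2 and 25.03 CPM in SLAM, with fold changes of 0.23 (adjusted p = 0.0570) and 0.14 (adjusted p = 0.212) with the block. For Dusp6 the values were -0.03 in TUC and -0.06 in SLAM, and for Dusp5 0.10 and 0.16 (adjusted p 0.0639 to 0.706). Dusp5 passed in SLAM without SLAM B (adjusted p = 0.000104), and Spry4 without SLAM A (0.0411).

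Both members higher and both lower without overlap in SLAM against 4sU (Dusp1 and Spry2, Spred1 and Errfi1) compare with 20.8% and 22.6% of genes. In TUC against 4sU, Spry2 and Spry4 were higher and Dusp4 and Spred2 lower without overlap, which held for 18.4% and 18.9% of genes. These shares are close to those of the members, so the counts do not set the group apart.

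TUC was set directly against SLAM to ask whether the chemistries leave different amounts of these transcripts. Spred1 averaged 108.4 ± 5.86 CPM in TUC and 80.8 ± 3.66 CPM in SLAM, with no overlap (15.4% of genes were higher in this way), and was higher in TUC by 0.42 ± 0.0530 on the log2 scale (adjusted p = 9.21e-05 with the block, 0.272 without it, 0.0372 in DESeq2, which called 1.48% of genes). Leaving out any 1 of the 4 libraries kept that call. It was 1 of 9 members called higher there, against 10% of genes, and 0 were lower, against 10.1%. Spry2 was lower in TUC without overlap (15.6% of genes), with a fold change of -0.10 and an adjusted p of 0.279. In edgeR without the block 0 of 9 passed, against 0% of genes, 1205 of which had an unadjusted p under 0.05, as did 1 member.

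The other 7 members had log2 fold changes from -0.18 to 0.09 in TUC against SLAM with the block, with adjusted p from 0.0627 (Spred2) to 0.810 (Dusp6). Without SLAM A, Dusp4 (adjusted p = 8.91e-05) and Spred2 (0.000686) also passed, and without SLAM B, Dusp5 (0.0139).

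Setting the 6 libraries that received 4sU against the 4 that did not puts the label and the chemistries together. Spry4 ranged from 20.5 to 26.3 CPM with 4sU and from 15.3 to 17.6 CPM without it, and Errfi1 from 224.2 to 273.5 CPM with 4sU and from 189.5 to 212.9 CPM without it. Both were higher in 6 of 6 libraries than in any without 4sU, as were 6.8% of genes. Without the block Spry4 rose by 0.49 ± 0.0722 (adjusted p = 0.00372) and Errfi1 by 0.33 ± 0.0642 (adjusted p = 0.0103), and both calls were kept when any 1 of the 10 libraries was left out.

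Spred1 passed as the only lower member, at -0.23 ± 0.0667 (adjusted p = 0.0423), which made 3 members called, against 25.3% of genes (9.98% higher and 15.3% lower). Its libraries overlapped, and the call was kept only without 4sU B or SLAM B (adjusted p 0.0583 to 0.163 without any other library). The groups behind that mean differed, with log2 fold changes against untreated cells of -0.03 for 4sU and against 4sU of -0.49 for SLAM and -0.07 for TUC. With the block 8 members passed, 6 higher and 2 lower (Dusp4 and Spred1), against 63.3% of genes. Spred2 did not (-0.08, adjusted p = 0.0935), and the call of Dusp5 was lost without TUC B (0.0574) or uridine A (0.0924).

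New RNA was computed as the CPM times the NTR. Every NTR mode of the members was at least 0.9514, so this nearly repeats their total level and includes any change after conversion. In TUC and SLAM libraries new RNA came to 155% and 146% of the total untreated level for Spry4. For Errfi1 it came to 128% and 120%. For Dusp4 it was 68.6% and 75.3%, for Spred1 89.4% and 66.5%, and for Spred2 78.9% and 89.8%. Dusp1, Dusp5, Dusp6 and Spry2 lay between 108% and 121% in both chemistries. The SDs of Dusp5 were wide. Its new RNA was 133.9 ± 26.4 CPM in TUC and 143.7 ± 51.2 CPM in SLAM. Its untreated level was 118.6 ± 31.6 CPM, so these means differed by less than the SDs.

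The replicate letters also divided the members. Dusp5 was lower in B than in A in 5 of 5 groups, by 0.40 in TUC, 0.74 in SLAM, 0.50 in 4sU, 0.48 in uridine and 0.55 in untreated cells on the log2 scale. Dusp6 was lower in 5 of 5 groups, by 0.25 to 0.40. Spred2 was higher in B in 5 of 5 groups, by 0.27 to 0.51, and Dusp4 by 0.22 to 0.63. When the letter was fitted, 5 members were higher in B and 2 lower, against 31% and 29.3% of genes.

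The B over A log2 fold change in that fit was -0.53 ± 0.0427 for Dusp5 (adjusted p = 5.05e-08) and -0.30 ± 0.0373 for Dusp6 (adjusted p = 4.12e-06). It was 0.36 ± 0.0406 for Spred2 (adjusted p = 1.49e-06) and 0.32 ± 0.0492 for Dusp4 (adjusted p = 4.06e-05), and 0.11 to 0.13 for Errfi1, Spred1 and Dusp1. Spry2 (-0.06, adjusted p = 0.179) and Spry4 (0.02, adjusted p = 0.777) did not pass. For Dusp4, Dusp5, Dusp6, Spry4, Spred2 and Errfi1 the SLAM group had the widest gap between letters, as the plot of letter differences shows. What the letters stand for is not stated in the labels, and the cause of the difference was not tested.

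**Figure D4:**
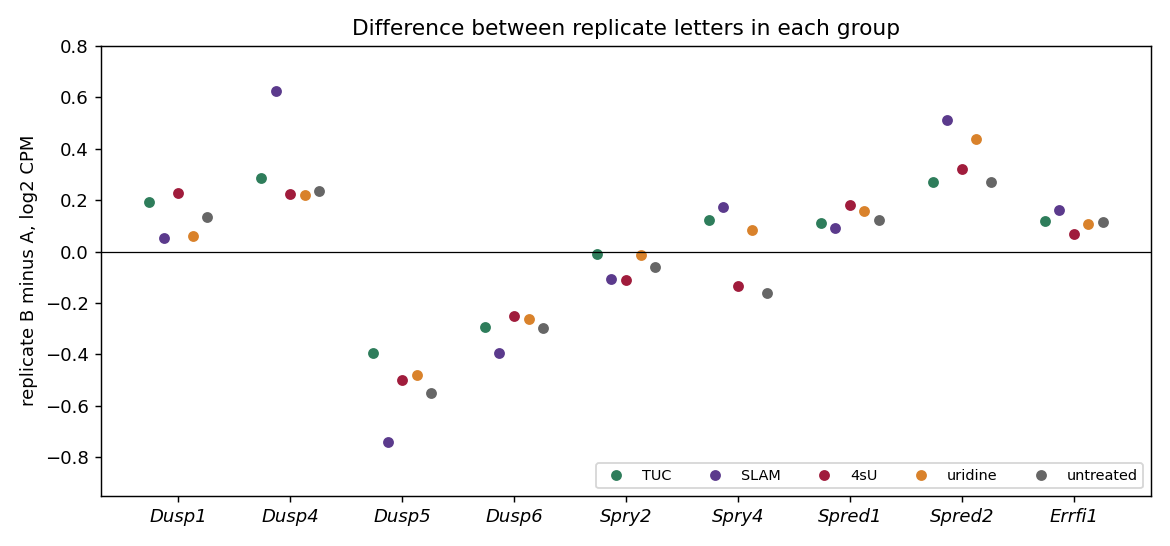
The y axis gives the log2 CPM of replicate B minus that of replicate A for each member, with 1 point per group. Dusp5 and Dusp6 lie below 0 and Dusp1, Dusp4, Spred1, Spred2 and Errfi1 above 0 in all 5 groups, and the SLAM points of Dusp4 (0.63) and Dusp5 (-0.74) are the farthest from 0.

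A list of 65 other genes of the pathway was read in the same fits, 61 of which were tested. In 4sU against untreated cells 0 passed without the block, against 0.164% of all genes. With it 8 of the 61 were higher and 8 lower, against 6.97% and 12.9% of all genes. Among the higher ones were the EGFR ligands Hbegf (0.43 ± 0.0633) and Ereg (0.26 ± 0.0521), the immediate-early factors Egr1 (0.27) and Egr3 (0.28), the ERK-induced survival gene Ier3 (0.27) and the ERK phosphatase Dusp7 (0.32). All 3 listed genes for RAS GTPase-activating proteins were lower, namely Rasa1 (-1.10 ± 0.0528), Rasa2 (-0.56) and Nf1 (-0.41), as was the kinase gene Braf (-0.42). Phlda1 and Pebp1 were also called higher, and Sos1, Met and Fgfr2 lower. Against uridine 9 were higher and 8 lower with the block, against 6.48% and 13.3% of all genes. Without it 0 passed, against 0.254%. The ligand gene Egf, unlike Hbegf and Ereg, was at -0.59 ± 0.273 in 4sU against untreated cells with the block (adjusted p = 0.142, edgeR). With any 4sU it was called lower without the block, at -0.73 ± 0.174 (adjusted p = 0.0207, edgeR).

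After SLAM conversion 2 of the listed genes were called against 4sU without the block, both higher: Dusp7 (0.62 ± 0.0891) and Phlda1 (0.56 ± 0.0808), each with an adjusted p of 0.0444. Of all genes 0.344% were called in that fit. With the block 11 of the 61 were higher and 17 lower in SLAM, against 20% and 21.6% of all genes. In TUC 6 were higher and 17 lower, against 11.6% and 14.2%. In TUC against SLAM 5 were higher and 8 lower with the block, against 10% and 10.1%. In uridine against untreated cells 0 of the 61 passed in either fit.

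The median share of new RNA ran from 0.492 to 0.989 over the roles listed. The ligands had a median NTR of 0.989 over 4 genes, the ERK target genes 0.976 over 12 and the other inhibitors 0.939 over 12, each value a mean over TUC and SLAM libraries. RAS, RAF, MEK and ERK genes had a median of 0.492 over 11, down to 0.137 for Mapk3, which encodes ERK1, and receptors had 0.746 over 7. The members, with a median of 0.992, stood nearest the ligands. Among the ERK targets 10 of 12 were above 0.9, the exceptions being Etv4 (0.47) and Ccnd1 (0.471), and among the other inhibitors Spry1 had 0.995 and Pebp1, the RAF kinase inhibitor protein, 0.140. No test was made between the lists.

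**Figure D5:**
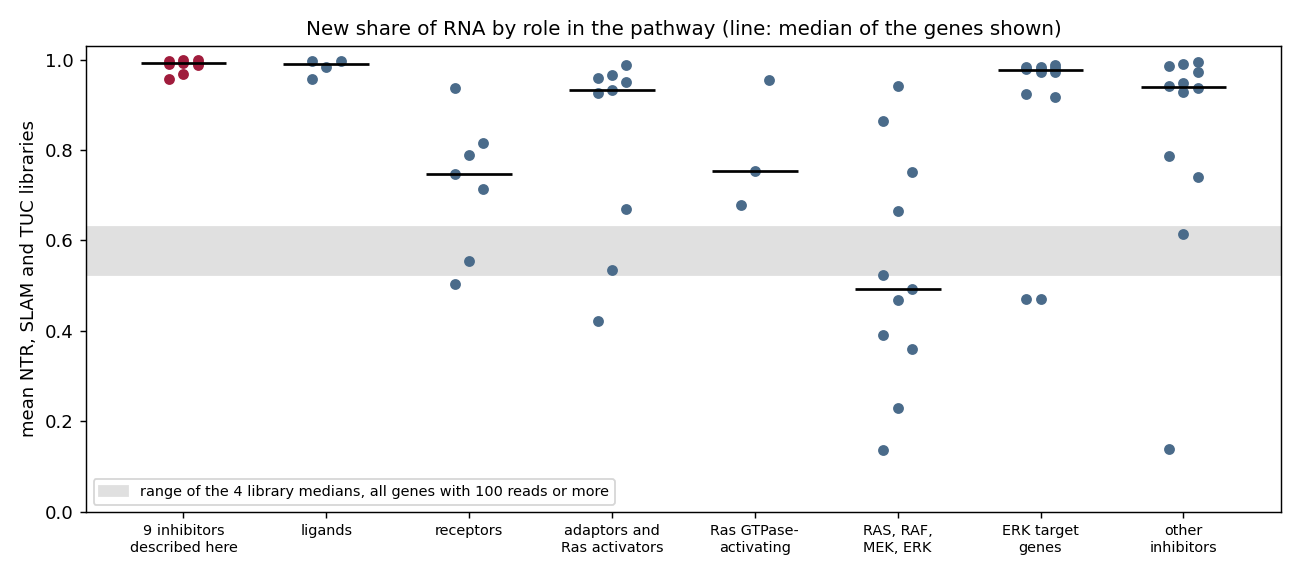
The y axis gives the NTR of each gene as the mean over TUC and SLAM libraries, by role along the x axis, with lines for the medians and a gray band for the range of the 4 library medians of all genes (0.523 to 0.630). The 9 inhibitors cluster at the top (median 0.992), and the RAS, RAF, MEK and ERK genes spread around 0.492.

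Over the 10 libraries the members did not share 1 profile. Likeness was measured as the root mean square difference of log2 CPM after centring each gene on its mean. The closest members were Dusp1 and Spry2 (0.115), then Dusp4 and Spred2 (0.134), Dusp1 and Errfi1 (0.139) and Dusp5 and Dusp6 (0.151). A small difference can also come from genes that vary little. Dusp1 and Spry2 had root mean square spreads of 0.132 and 0.117 around their own means, close to their difference. Dusp1 was higher and Spry2 lower in B than in A in all 5 groups. Among 9873 other genes the nearest to Errfi1 was the cyclin gene Ccng1 (0.0596), to Spry4 Rgs2 (0.104), to Dusp4 the proteoglycan gene Vcan (0.0553) and to Dusp5 Ube2c (0.0607). Dusp1 was nearest to Neu1, Dusp6 to Mogs, Spry2 to Apeh and Spred2 to Gria3, at 0.0340 to 0.0426. These are descriptions over libraries that share treatments and letters.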

How the data were processed

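RNA-seq values of 10 NIH-3T3 libraries were taken from 1 table. Per the submitters' processing notes, the tools were STAR 2.7.10b, Bowtie2 2.3.0 and cutadapt. Genome build, annotation, counter, strand setting and the estimator of new RNA were not given in the sources used here, so reads of overlapping and antisense genes cannot be told apart. Values per gene and library were deposited as read counts, per the file headers, and are taken here as unscaled expected counts. A fraction was deposited for 8 libraries as mode, mean and 0.05 and 0.95 quantiles, with shape values (a score without fixed range) deposited beside it, per the file headers. What the fraction measures is unnamed, and it is taken here as the NTR. Gene length in bases was deposited without saying of which kind.

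The members, the pathway and marker lists and the tests were chosen with earlier results of these data known. All 9 members are named in every comparison, other pathway genes from the list where called with or without the letter or changed by 1.5-fold or more, and as the most similar gene the 1 nearest to each member among tested genes averaging at least 100 counts, leaving out predicted, clone and pseudogene symbols. Some genes these rules select are not reported here.

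Expected counts were rounded, filtered with filterByExpr (12218 genes), TMM-scaled and put into 1 quasi-likelihood fit in edgeR 4.0.16 under R 4.3.3, with all 10 libraries and a term per group. Adjusted p is Benjamini-Hochberg over all genes tested, with a threshold of 0.05. NTR was tested with limma 3.58.1 on log2 odds, kept within 0.001 and 0.999. DESeq2 1.42.0, other size factors, no filter, fits of the compared groups alone, left-out libraries and the letter as a block were alternatives. Scripts were tested on simulated data.

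Letters were taken to pair the libraries because B minus A differences correlated between groups (r from 0.584 to 0.69 across genes in 10 group pairs), and the second principal component, with 24.0% of variance, separated them. Blocking on the letter lowered the common dispersion to 0.00195, against 0.0187 otherwise. The unblocked fit is the main one, since no source states a paired analysis. Replicates of a group differed beyond sampling noise (chi-square over degrees of freedom 38.4 to 78.2). Reads carry no molecular identifiers in the table, so depth limits counting error only.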

Additional observations from a re-analysis of the deposited data

Results flagged for a closer look

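Spred1 drew attention because the test of the difference between the chemistries passed for it alone among the 9 members: with the letter as a block it was higher in TUC than in SLAM by 0.42 on the log2 scale (adjusted p = 9.21e-05, edgeR). That fit called 10% of all genes higher and 10.1% lower, so 1 call among 9 members does not set the group apart. Without the block the adjusted p of Spred1 was 0.272 (edgeR). Against the unconverted 4sU libraries it was at -0.07 in TUC and at -0.49 in SLAM. Its NTR averaged 0.958 ± 0.00467 in TUC and 0.956 ± 0.00594 in SLAM (SD, n = 2 each).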

How the results depend on the processing

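The letter as a replicate block moved the counts of members called most: it called 3 members in 4sU against untreated, 3 in 4sU against uridine, 6 in SLAM against 4sU, 2 in TUC against 4sU, 1 in TUC against SLAM and 8 with any 4sU against none, and the same numbers with RLE size factors, where the main fit called 0 in each pair of groups and 3 with any 4sU. Over all 12218 genes the block with TMM factors called 2432, 2412, 5079, 3151, 2458 and 7731 in the same order. The rise with the block was therefore not particular to the members. DESeq2 called 1 member in 4sU against untreated, 1 in 4sU against uridine, 1 in SLAM against 4sU and 1 in TUC against SLAM, against 1.97, 2.28, 5.72 and 1.48% of genes. With the block and 1 library left out the counts ran from 2 to 3, 1 to 2, 3 to 7, 1 to 2, 1 to 3 and 7 to 9 in the order given above, and 7 to 7 for B against A. Without the block they were 0 to 0 in each pair of groups and 2 to 4 with any 4sU. Differences in NTR between the chemistries also moved with the library left out, in a test where values near 1 were replaced by the upper limit. The median member NTR was 0.992 from modes and 0.98 from lower bounds.

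Fold changes of members called in the full fit kept their sign in 240 of 240 refits with 1 library left out and in 39 of 39 other refits, and those not called changed it in 74 of 462 and 4 of 276. Without SLAM A, Spred2 in SLAM against 4sU was at 0.059 (adjusted p = 0.95), where leaving out libraries in turn gave -0.46 to 0.059 and the full fit without the block -0.18. The cause was not tested. Spred1 with any 4sU was at -0.23 (adjusted p = 0.0588) without the filter on low counts, and no other alternative apart from left-out libraries ended the call of a member made in the main fit. Groups of 2 limit every test, and values of NTR near 1 limit any order among the members.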
